A study of Mus musculus with 6 samples.

Results

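The genes described here are 6 transcription factors with roles in the formation or upkeep of inner ear hair cells (HCs): Gfi1, Pou4f3, Barhl1, Ikzf2, Rfx1 and Rfx3. They were taken by exact gene symbol from a table of 14865 genes, and all 6 were among the 14455 genes tested, those with 40 or more normalized reads in any library. RNA came from the cochlear duct, the coiled hearing part of the inner ear, of C57BL/6 mice at postnatal day 8, and polyadenylated RNA was sequenced. One group was wild type at the Gfi1 locus (Gfi1+/+), with 3 libraries of 1 mouse each. The other carried a Cre recombinase coding sequence in place of 1 Gfi1 copy (Gfi1cre/+), with 3 libraries that each pooled 3 mice, so replicates of the first group were single animals and those of the second were averages. Cre in this line is driven from the Gfi1 locus and is used as an HC driver, and that locus is also known to be active in blood cell precursors. A single count per gene does not tell the wild type from the targeted Gfi1 allele, so reads from any Gfi1 exons that the targeted allele keeps would be counted as Gfi1.

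HCs are the sensory cells that turn sound into electrical signals, and in the mouse they leave the cell cycle before birth and go on maturing after it. Their identity is set and then held by a chain of transcription factors. Atoh1 starts the lineage, Pou4f3 acts downstream of it, and Gfi1, a zinc finger repressor, lies downstream of Pou4f3 and is needed for HC survival. Barhl1 is a homeobox factor needed for long-term HC maintenance, Ikzf2 encodes the zinc finger factor Helios that is linked to outer HC maturation, and Rfx1 and Rfx3 encode winged-helix factors that bind X-box elements in genes of cilia and are needed together for HC survival during maturation.

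In build GRCm38 (GENCODE M21) the genes lie apart, each on its own chromosome, and every value below is for the whole gene, all exons summed. Gfi1 spans chr5:107716657-107726036 on the minus strand and shares 101 exon bases with a gene on the opposite strand, A430072P03Rik. Pou4f3 lies at chr18:42394539-42397249 (plus strand) and Barhl1 at chr2:28907679-28916668 (minus strand). Ikzf2 lies at chr1:69531214-69687245 (minus strand) and shares 144 exon bases with other annotated genes. Rfx1 lies at chr8:84066834-84096992 (plus strand) and Rfx3 at chr19:27761721-28011166 (minus strand).

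The tissue label was checked against HC genes. Of 37 HC marker genes written down, 34 were listed. Their summed level ran from 18451 to 19787 normalized reads in Gfi1+/+ and from 18089 to 18392 in Gfi1cre/+ libraries. Every Gfi1cre/+ sum thus lay below every Gfi1+/+ sum, by a narrow gap. A normalized read here is a counted read divided by 1 factor per library. Reads on genes numbered 13603908 to 16136022 in Gfi1+/+ and 17939607 to 19359753 in Gfi1cre/+ libraries. The first Gfi1+/+ library stood apart in neuron genes (15 genes, summed level 13338, against 3728 to 6259 in the other libraries) and in glia genes (7 genes, 40288 against 17127 to 26221). Granulocyte precursor genes (6 of 9 listed) summed to 61.7 to 271 normalized reads in Gfi1+/+ and 236 to 460 in Gfi1cre/+. Erythroid genes (6 of 8 listed) summed to 416 to 669 and 732 to 1879. The genes past an adjusted p-value of 0.05 numbered 4 (limma with Benjamini-Hochberg adjustment), and all were Y-linked (Ddx3y, Kdm5d, Uty and Eif2s3y, named after their values were seen): at most 1.23 normalized reads in each Gfi1+/+ library and at least 116 in each Gfi1cre/+ library. The sex of the mice and the genotype therefore cannot be told apart.

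**Figure D1:**
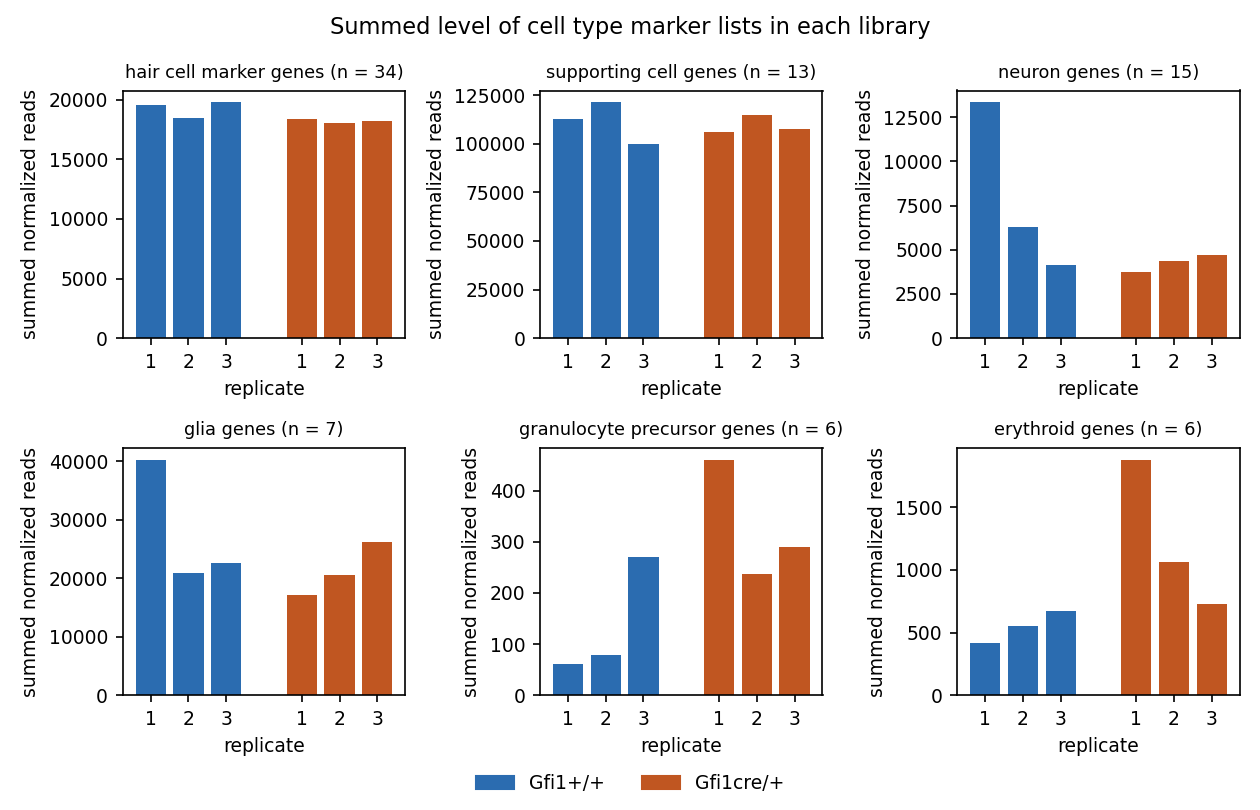
Summed normalized reads of 6 cell type gene lists (y axes, linear from 0) in each library (x axes, replicate number within a genotype), Gfi1+/+ in blue and Gfi1cre/+ in orange. HC marker sums were 18451 to 19787 in Gfi1+/+ and 18089 to 18392 in Gfi1cre/+ libraries, without overlap. The first Gfi1+/+ library held the highest neuron and glia sums.

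Gfi1, the gene whose locus was targeted, had the only genotype groups among the 6 factors that did not overlap. Its level was 147, 160 and 152 normalized reads in Gfi1+/+ replicates 1 to 3 and 136, 130 and 139 in Gfi1cre/+ replicates 1 to 3. Every Gfi1cre/+ library thus lay below every Gfi1+/+ library. The mean was 153 ± 6.72 (SD, n = 3) against 135 ± 4.65 (SD, n = 3), a log2 fold change of -0.18 (SE 0.0975, 95% interval -0.40 to 0.04, limma adjusted p = 0.999), all on the log2(value + 1) scale. The interval reaches from 24.4% lower to 2.69% higher, so it includes no difference, and a 3 against 3 exact permutation test (two-sided) gave p = 0.1, the smallest it allows. Of all genes tested, 7.52% had genotypes that did not overlap, 4.07% with Gfi1cre/+ lower. The counts behind Gfi1 were 119 to 156 reads per library. The replicates lay closer together than counting alone gives on average, with a coefficient of variation of 4.39% and 3.45% in Gfi1+/+ and Gfi1cre/+ against 8.54% and 8.18% expected from counting. The counting error of the log2 fold change itself was 0.0985. In whole tissue, fewer HCs, less RNA per HC and exon sequence missing from the targeted allele cannot be told apart. Reads were not split by allele. Granulocyte precursors, a lineage in which Gfi1 is also known to act, had marker sums above the highest Gfi1+/+ sum in 2 of 3 Gfi1cre/+ libraries, and their part in the Gfi1 value was not tested.

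Pou4f3, a POU-domain factor without which HCs die, had groups that overlapped. Its level was 602, 495 and 578 normalized reads in Gfi1+/+ and 501, 483 and 522 in Gfi1cre/+. The second Gfi1+/+ library lay within the Gfi1cre/+ range, and the other two Gfi1+/+ libraries lay above it. The means were 559 ± 56.2 and 502 ± 19.4 (SD, n = 3 each), with a log2 fold change of -0.15 (SE 0.0835, 95% interval -0.34 to 0.04, limma adjusted p = 0.999). Without the first Gfi1+/+ library, the one high in neuron genes, the estimate was -0.09, and without the second it was -0.23. The spread of Pou4f3 in Gfi1+/+ was larger than counting gives on average, with a coefficient of variation of 10.1% against 4.47% expected from 473 to 576 reads per library.

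Rfx1 was the member with a log2 fold change above 0. Its level was 455, 492 and 584 normalized reads in Gfi1+/+ and 540, 586 and 514 in Gfi1cre/+. The third Gfi1+/+ library was as high as the highest Gfi1cre/+ library, and the groups overlapped. The means were 511 ± 66.4 and 547 ± 36.3 (SD, n = 3 each), with a log2 fold change of 0.10 (SE 0.0979, 95% interval -0.12 to 0.33, limma adjusted p = 0.999). The value leaned on single animals: without the third Gfi1+/+ library it was 0.20 and without the first it was 0.03. Rfx1 overlaps an antisense gene, C330011M18Rik, which was itself listed at 34.8 to 46.9 normalized reads. Whether the counting used strand is not given in the sources used here, so reads of the pair cannot be told apart where they overlap. Rfx1 shares 42 exon bases with other annotated genes in all.

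Rfx3, the partner of Rfx1, was at 186, 226 and 180 normalized reads in Gfi1+/+ and 189, 199 and 177 in Gfi1cre/+. The lowest Gfi1cre/+ library lay just below the Gfi1+/+ range and the other two lay inside it. The means were 198 ± 24.9 and 188 ± 10.7 (SD, n = 3 each), with a log2 fold change of -0.06 (SE 0.110, 95% interval -0.31 to 0.19).

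Ikzf2 was at 183, 162 and 215 normalized reads in Gfi1+/+ and 174, 190 and 187 in Gfi1cre/+, with every Gfi1cre/+ library inside the Gfi1+/+ range. Its log2 fold change was -0.02 (SE 0.116, 95% interval -0.28 to 0.25). The animals of the Gfi1+/+ group differed more than counting gives, with a coefficient of variation of 14.3% against 7.77%, while the pooled Gfi1cre/+ libraries varied by 4.58% against 7.01%.

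Barhl1, the least covered of the 6, was at 70.4, 83.8 and 84.4 normalized reads in Gfi1+/+ and 82.7, 71.9 and 83.0 in Gfi1cre/+. Each genotype had 1 lower library and a higher pair, and the groups overlapped. The means were 79.5 ± 7.92 and 79.2 ± 6.33 (SD, n = 3 each), with a log2 fold change of -0.00 (SE 0.147, 95% interval -0.34 to 0.33). With 57 to 95 reads per library, the interval runs from 20.7% lower to 25.5% higher, so differences within that range remain possible.

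**Figure D2:**
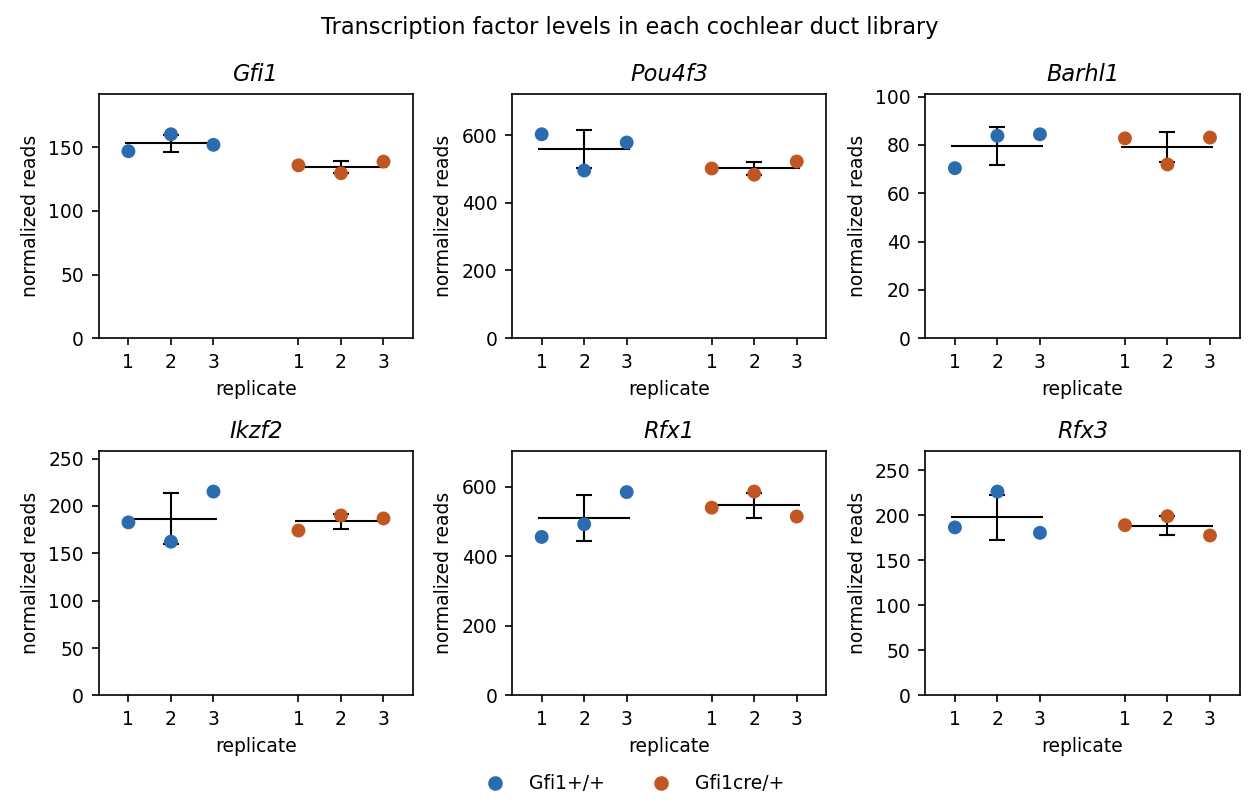
Normalized reads (y axes, linear from 0, 1 scale per gene) of the 6 factors in each library (x axes, replicate number), Gfi1+/+ in blue and Gfi1cre/+ in orange, with black lines for the group mean and 1 SD (n = 3). Gfi1 alone had no overlap between genotypes (147 to 160 against 130 to 139).

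Across the 6 factors, 0 passed an adjusted or an unadjusted limma p-value of 0.05, where 0.0277% and 3.04% of all genes tested did. The log2 fold change was below 0 for 5 of 6, where 50.1% of all genes lay below 0, and their median was -0.04 against -0.00 over all genes. The 6 genes share their libraries, so these signs are not separate observations.

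Levels were set against each other per kilobase of annotated exon (GENCODE M21, build GRCm38), within each library. Pou4f3 was the highest at 221 ± 20.3 normalized reads per kilobase (SD over 6 libraries), above 71.1% of the listed genes with a length. Rfx1 followed at 82.2 ± 8.05, then Gfi1 at 45.1 ± 3.54, Barhl1 at 20.3 ± 1.64, Rfx3 at 17.5 ± 1.62 and Ikzf2 at 15.9 ± 1.53. The median over all listed genes was 106, so 5 of the 6 factors lay below it. Pou4f3 exceeded Gfi1 by a factor of 4.87 and Rfx1 by 2.69, and Rfx1 exceeded Rfx3 by 4.68. Each of these orders held in 6 of 6 libraries.

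Of the 15 pairs, 14 had the same order in every library (exact sign-flip permutation test over 6 libraries, two-sided, p = 0.0313, the smallest it allows, adjusted p = 0.0335). Rfx3 and Ikzf2, neighbours in the order, did not differ beyond their spread: Ikzf2 was higher in 2 of 6 libraries and the exact p was 0.25. The steps from Barhl1 to Rfx3 (factor 1.17) and from Barhl1 to Ikzf2 depended on the length used, and with the longest transcript in place of all exons their adjusted p (the same exact test) was 0.536 and 0.288. The transcript forms in use were not measured.

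**Figure D3:**
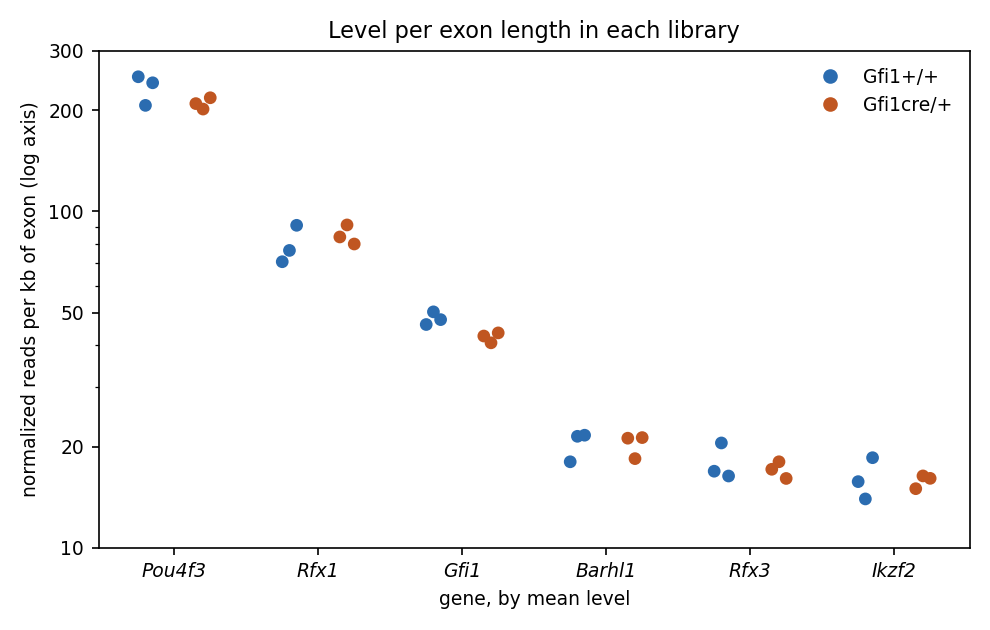
Normalized reads per kilobase of exon (y axis, log scale) of each factor, by gene in order of mean level (x axis), 1 point per library, Gfi1+/+ in blue and Gfi1cre/+ in orange. Pou4f3 (mean 221), Rfx1 (82.2) and Gfi1 (45.1) were separate from each other, and Rfx3 and Ikzf2 overlapped.

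Ratios of 2 factors within a library were taken of normalized reads + 1, as in the fit, so that the library's scaling nearly cancels. The ratio of Gfi1 to Pou4f3, the factor directly upstream of it, was 0.245, 0.325 and 0.264 in Gfi1+/+ and 0.272, 0.270 and 0.267 in Gfi1cre/+. All Gfi1cre/+ values lay inside the Gfi1+/+ range, and the difference was -0.03 on the log2 scale. Gfi1 over Rfx1 had the largest difference, -0.29, with 0.324, 0.327 and 0.261 in Gfi1+/+ and 0.253, 0.223 and 0.271 in Gfi1cre/+, still overlapping. All 5 ratios with Gfi1 as numerator had a lower mean in Gfi1cre/+. This follows by arithmetic, because Gfi1 had the lowest log2 fold change of the factors (-0.18). The 5 signs are therefore not separate observations. The ratio of Rfx1 to Rfx3 was 2.44, 2.17 and 3.23 in Gfi1+/+ and 2.85, 2.94 and 2.89 in Gfi1cre/+. Here too the Gfi1cre/+ values lay within the Gfi1+/+ range. None of the 15 pairs separated the genotypes, and the smallest adjusted p of the exact permutation test was 0.75, with 0.1 the smallest raw p possible.

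Each factor was also divided (both as normalized reads + 1) by Myo7a, the unconventional myosin used as a standard HC marker. For a factor also expressed outside HCs this ratio is not a value per HC. The cell types behind the reads of each factor were not measured. Gfi1 over Myo7a was 0.246, 0.241 and 0.199 in Gfi1+/+ and 0.211, 0.189 and 0.218 in Gfi1cre/+, a log2 difference of -0.14 with overlap. Rfx1 over Myo7a was 0.758, 0.736 and 0.760 in Gfi1+/+ and 0.835, 0.849 and 0.803 in Gfi1cre/+. Every Gfi1cre/+ ratio lay above every Gfi1+/+ ratio, and the group means differed by 0.14 on the log2 scale (exact permutation p = 0.1, adjusted p = 0.9). No other of the 12 ratios to Myo7a or to the mean log2 level of 31 HC markers separated the genotypes. The replicates of Rfx1 over Myo7a had a pooled SD of 0.0343 on the log2 scale, whereas counting alone gives 0.0847. They thus lay closer together than independent counts do on average. Over the HC marker mean, the log2 difference was 0.19 for Rfx1, 0.09 for Barhl1, 0.08 for Ikzf2, 0.03 for Rfx3, -0.06 for Pou4f3 and -0.09 for Gfi1, and the groups overlapped for all 6. With 1 library left out at a time, the Gfi1 value ran from -0.15 (without the first Gfi1+/+ library) to -0.02 (without the second).

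**Figure D4:**
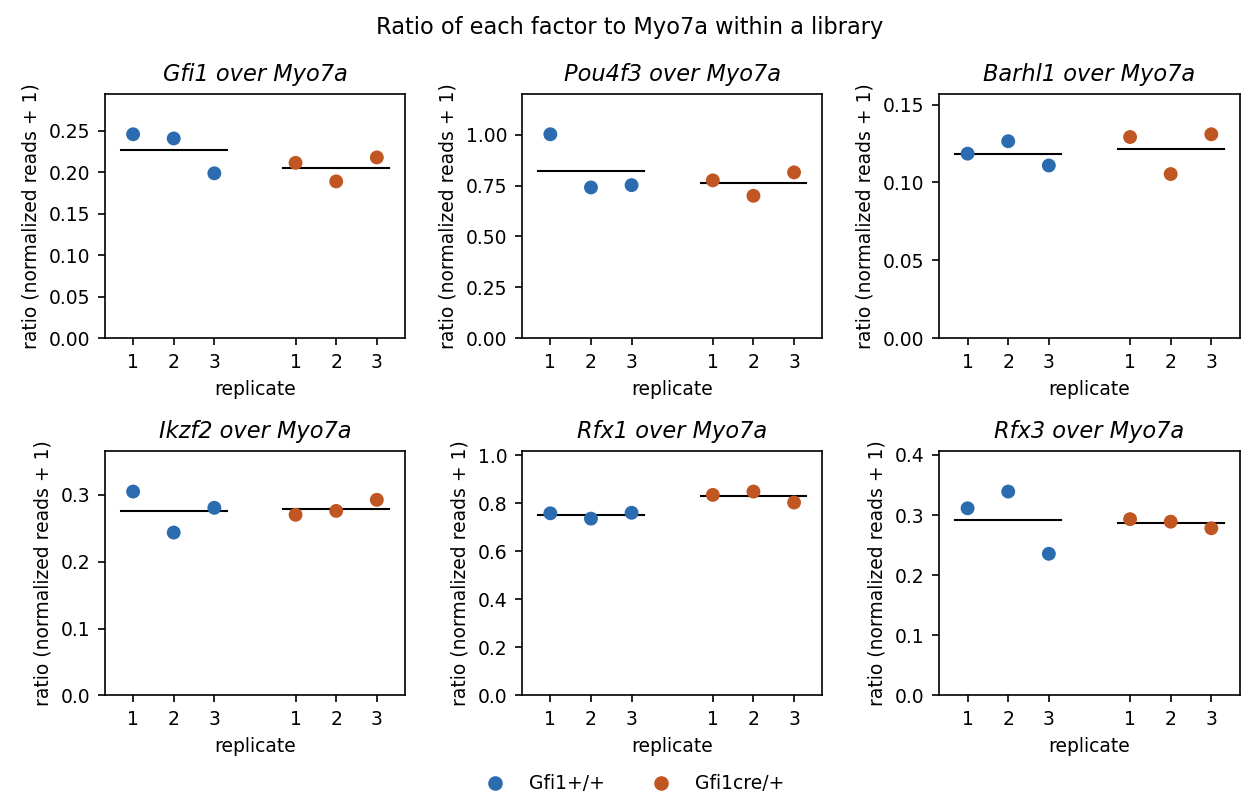
Ratio of the normalized reads + 1 of each factor to those of Myo7a (y axes, linear from 0) in each library (x axes, replicate number), Gfi1+/+ in blue and Gfi1cre/+ in orange, with a line at the mean of the log2 ratios. The Rfx1 ratio was 0.736 to 0.760 in Gfi1+/+ and 0.803 to 0.849 in Gfi1cre/+, while the other 5 ratios overlapped.

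Of 14 family members of these factors, 6 were listed, and Gfi1b, Pou4f1, Pou4f2, Barhl2, Ikzf3, Rfx4, Rfx6 and Rfx8 were not. None of the 6 passed the test. Ikzf1, which encodes Ikaros of blood cells, was at 30.9, 38.7 and 49.6 normalized reads in Gfi1+/+ and 64.4, 42.6 and 66.1 in Gfi1cre/+. The groups overlapped in 1 Gfi1cre/+ library, and the log2 fold change was 0.53 (SE 0.256, 95% interval -0.05 to 1.10). Rfx2, another factor of ciliated cells, was higher in every Gfi1cre/+ library (230 to 261) than in every Gfi1+/+ library (209 to 228), an order that 3.45% of all genes tested had, with a log2 fold change of 0.15 (SE 0.0883). Rfx7 was lower in every Gfi1cre/+ library (329 to 372) than in every Gfi1+/+ library (373 to 393), an order that 4.07% of all genes tested had. Its log2 fold change was -0.14 (SE 0.0733). Ikzf4, Ikzf5 and Rfx5 overlapped, with log2 fold changes from -0.06 to 0.01.

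Of 22 other regulators of the HC lineage, 20 were listed, and Atoh1, which starts the lineage, and Insm1, an embryonic outer HC factor, were not. Their log2 fold changes were above 0 in 11 and below 0 in 9, with a median of 0.01, and 0 passed the adjusted p-value. Gata3, a zinc finger factor of the sensory epithelium and its neurons, was at 3106, 3259 and 2981 normalized reads in Gfi1+/+ and 2977, 2794 and 2587 in Gfi1cre/+. The groups did not overlap, by a narrow gap, and the log2 fold change was -0.16 (SE 0.0660, 95% interval -0.31 to -0.01). Gata3 was the only one of the 20 with an unadjusted limma p-value under 0.05, where 3.04% of all genes tested had one. All 15 neuron genes also had log2 fold changes below 0 (median -0.77), with the highest sum in the first Gfi1+/+ library, and their part in the Gata3 value was not tested. Among the rest, the prosensory factor Sox2 (-0.14), the LIM homeobox factors Isl1 (-0.13) and Lhx3 (-0.15) and Prox1 of supporting cells (-0.17) had values below 0, and the inner HC factor Tbx2 (0.11), the Notch-related factor Hes6 (0.12) and the splicing regulator Srrm4 (0.17) had values above 0. These 7 overlapped between the genotypes. Nr2f2, an orphan nuclear receptor, did not, with 1106 to 1153 normalized reads in Gfi1+/+ and 1153 to 1166 in Gfi1cre/+, a gap of under 1 read and a log2 fold change of 0.04 (SE 0.0509). Gata3 and Nr2f2 were thus 2 of 20 without overlap, where the share over all genes tested was 7.52%.

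The HC marker genes had 23 of 31 tested members below 0, with a median log2 fold change of -0.11, against -0.00 over all genes, and 0 past the adjusted p-value. The groups did not overlap in 22.6% of them, 6 lower and 1 higher, where 7.52% of all genes tested did not overlap (4.07% lower and 3.45% higher). Without the first Gfi1+/+ library, the one high in neuron and glia genes, the median was -0.067. Pvalb, a calcium buffer, had the largest value at -0.47, and Gpr98, a stereocilia link protein, was at -0.38, both with an unadjusted limma p-value under 0.05, as was Tmie of the transduction channel at 0.28, which makes 3 of 31 where 3.04% of all genes had such a p-value. The outer HC genes had 5 of 6 below 0 (median -0.12). The 3 inner HC genes tested ran from -0.15 to 0.11 (median 0.00), and the highest was Tbx2, also counted among the lineage regulators. These lists were not tested against each other. Supporting cell genes had 8 of 13 below 0 (median -0.01), macrophage genes 8 of 15 above 0 (median 0.02) and bone genes 6 of 7 above 0 (median 0.24). The lists with the medians farthest from 0 were erythroid genes (6 of 6 above 0, median 2.15), granulocyte precursor genes (6 of 6 above 0, median 1.83), neuron genes (15 of 15 below 0, median -0.77) and glia genes (4 of 7 below 0, median -0.41), and their part in the HC marker values was not tested. The 36 tested genes of cilia, the class that RFX factors regulate, were split 18 above and 18 below 0, with a median of 0.00.

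**Figure D5:**
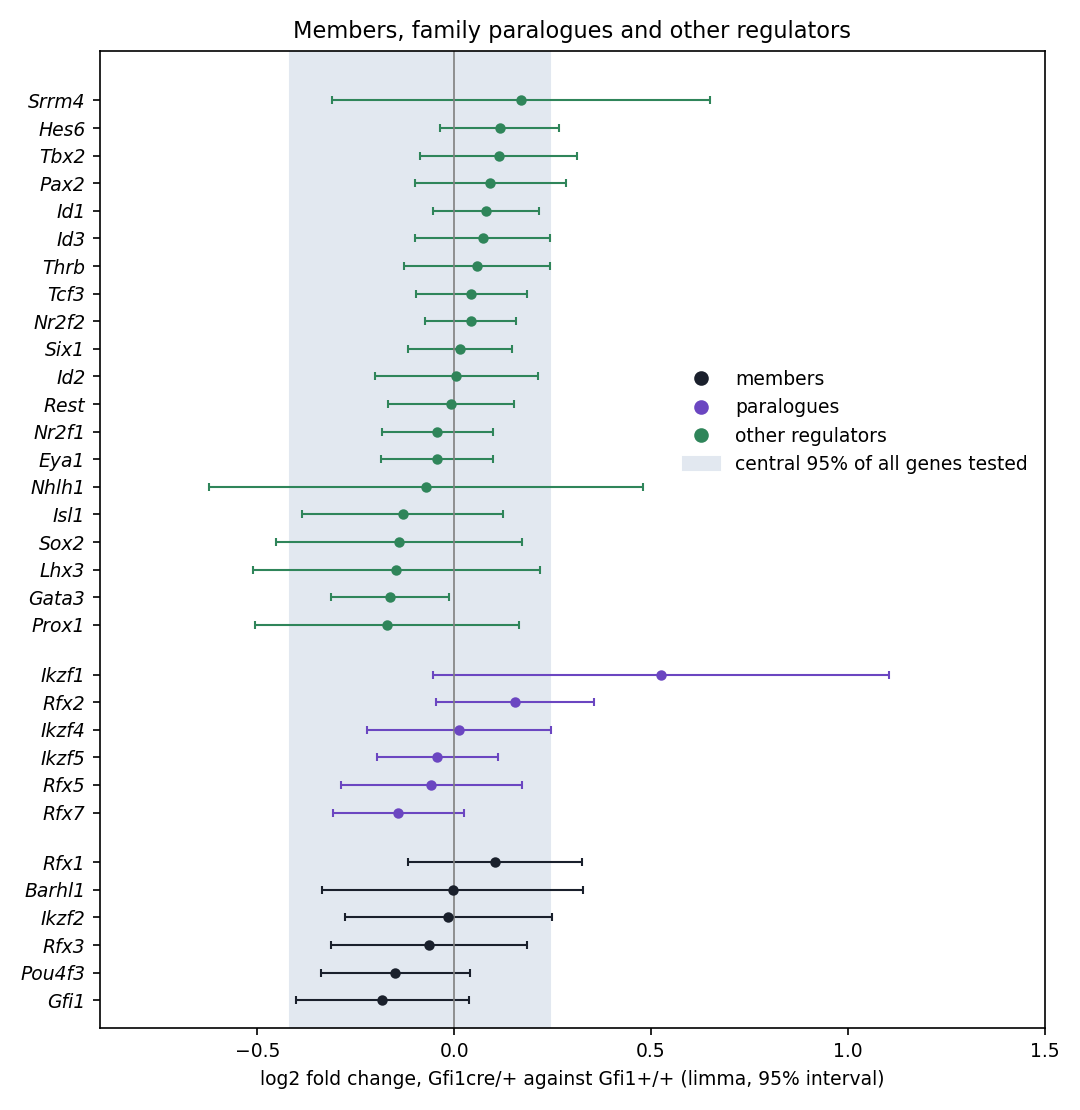
Log2 fold change of Gfi1cre/+ against Gfi1+/+ (x axis, limma on log2(value + 1), bars are 95% intervals, n = 3 libraries each) for the 6 factors, their 6 listed paralogues and 20 other lineage regulators (y axis). All intervals of the 6 factors include 0, and Gata3 has the interval that does not.

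The start regions of the factors were read for letters that RFX proteins bind, because Rfx1 and Rfx3 are themselves members. The X-box these proteins bind is an imperfect inverted repeat with half-sites commonly written GTTGCC and GGCAAC. RefSeq windows (GRCm38.p6, 250 bases before to 50 after the annotated start) were matched for 4 of the 6 factors, and not for Pou4f3 and Ikzf2. Inverted repeats with arms of at least 5 bases and a gap of at most 3 were sought in both RFX windows. Exactly 1 was shared by Rfx1 and Rfx3, the 11-letter palindrome GCAACNGTTGC (which reads the same on both strands), shown in capitals within the whole windows of chr8:84066586-84066885 (plus strand) and chr19:28011117-28011416 (minus strand), 5′ to 3′:
Rfx1: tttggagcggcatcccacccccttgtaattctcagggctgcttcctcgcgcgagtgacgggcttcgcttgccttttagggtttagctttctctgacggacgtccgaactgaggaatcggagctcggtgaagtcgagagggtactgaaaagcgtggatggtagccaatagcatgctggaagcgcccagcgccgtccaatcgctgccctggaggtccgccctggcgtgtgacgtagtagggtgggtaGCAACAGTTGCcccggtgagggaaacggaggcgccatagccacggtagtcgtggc
Rfx3: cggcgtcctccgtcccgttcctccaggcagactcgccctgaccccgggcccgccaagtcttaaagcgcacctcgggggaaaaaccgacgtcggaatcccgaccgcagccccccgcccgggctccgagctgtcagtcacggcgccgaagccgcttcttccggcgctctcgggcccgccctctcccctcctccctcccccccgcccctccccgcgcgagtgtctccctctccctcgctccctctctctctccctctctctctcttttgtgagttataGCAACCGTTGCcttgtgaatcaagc

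In Rfx1 the palindrome begins 5 bases before the annotated start and in Rfx3 25 bases after it. The palindrome was present in 14 of 32851 windows of this length (0.0426%), and it overlaps the half-site GTTGCC in both genes, which was present in 12.5% of windows on either strand. It was taken from these sequences, so its rarity is a description, and binding was not measured. Its arms stand in the opposite order to those of the X-box, with GCAAC before GTTGC, and the base before GCAAC is not G in either gene, so it is not an X-box in arrangement. Neither Gfi1 nor Barhl1 had it in the windows matched. Of the 14 genes with the palindrome, 10 were tested. Log2 fold changes were above 0 in 7 and below 0 in 3, where 50.1% of all genes tested lay below 0. Their median was 0.02, and 0 had an unadjusted limma p-value under 0.05, where 3.04% of all genes tested did. Apart from Rfx1 and Rfx3, the 10 tested genes were Aqp1, Cutc, Ezr, Lrrc56, Nat14, Slc25a45, St7 and Ubl3. Of these, Nat14 (0.27) was higher in every Gfi1cre/+ library, an order that 3.45% of all genes tested had. The groups did not overlap in 10% of the 10 genes, where 7.52% of all genes tested did not overlap.

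The genes whose log2 levels followed each factor most closely over the 6 libraries were ranked by Pearson's r among 13921 other genes with a mean of at least 40. They were Tbk1, Gm11696 and Ube2d1 for Gfi1 (r = 0.982 to 0.968), Gm23935, Fgf1 and Rn7sk for Pou4f3 (0.999 to 0.995), and Zfp873, Rybp and Gm12168 for Barhl1 (0.986 to 0.975). They included Pgap3 and Gapvd1 for Ikzf2 (both 0.991), and were Usp48, Med12 and Hpse for Rfx1 (0.995 to 0.992), and Akr1b8, BC021891 and Zkscan2 for Rfx3 (0.995 to 0.985). With 6 points and this many genes such values arise readily, and the points share library depth and genotype. No member was among the closest genes of another: r between members ran from -0.70 (Ikzf2 and Rfx3) to 0.59 (Ikzf2 and Rfx1), and the best rank a member took was 2141. Rfx1 and Myo7a had r = 0.813, rank 1129.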

How the data were processed

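The authors prepared TruSeq libraries, mapped paired-end reads with TopHat (mm10) and counted the unique alignments per gene with HTSeq-count, per the labels and methods, which give no versions, annotation or strand setting. The deposited signal is described as quantile-normalized. Its values in each library are whole multiples of 1 step (tolerance 0.1 reads, 100% of values), so whole reads divided by a size factor, and the recovered reads gave the counts and counting errors. The main test was limma 3.58.1 (R 4.3.3) on log2(signal + 1) with a trend, genotype only, Benjamini-Hochberg over 14455 genes. Ratios and orders used exact permutation tests over libraries (scipy 1.17.1). Alternatives included edgeR 4.0.16, DESeq2 1.42.0, other scalings, minima and pseudocounts, and each library left out. Genes named were the 6 members, listed paralogues and lineage regulators, Myo7a, at most 3 genes per other list with unadjusted p under 0.05, and the 3 most alike genes per member, of which 1 is not reported here. Members and lists were chosen with earlier results of these data known. Lengths came from GENCODE M21 (14791 of 14865 identifiers matched). Whether libraries of a genotype came from separate litters is not stated. The limma and edgeR fits were tested on simulated counts with changes larger than those of the 6 members, so differences this small were not covered. Counting errors cover counting only.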

Additional observations from a re-analysis of the deposited data

How the results depend on the processing

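The log2 fold changes of Gfi1, Pou4f3 and Rfx1 kept their sign in all alternatives run, and no member passed an adjusted p of 0.05 in any (lowest 0.446 for Gfi1, 0.536 for Pou4f3 and 0.235 for Rfx1). Leaving out 1 library at a time gave -0.21 to -0.15 for Gfi1, -0.23 to -0.09 for Pou4f3 and 0.03 to 0.20 for Rfx1. Estimates near 0 changed sign: Barhl1 was 0.064 with quantile normalization, 0.00062 with TMM and -0.088 to 0.064 with a library left out, Ikzf2 was 0.017 with quantile normalization and -0.11 to 0.091, and Rfx3 was -0.13 to 0.037. The unadjusted p was under 0.05 for Gfi1 with eBayes without a trend (0.0243, limma), Pou4f3 without the second Gfi1+/+ library (0.0130, limma) and Rfx1 without the third (0.0253, limma). The cause was not tested.

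The 4 genes past the adjusted p became 10 with DESeq2 and 0 with a mean of at least 200 (which leaves out Gfi1, Barhl1, Ikzf2 and Rfx3), and 0 to 48 with a library left out, 48 without the third and 8 without the second Gfi1+/+ library, and 0 without the third Gfi1cre/+ library. Ratios between members that did not overlap numbered 1 with a pseudocount of 10 and 0 to 5 with a library left out, and ratios to HC references 1 to 5. With fewer libraries such a count can stay or rise but not fall, by construction. With a library left out, the sign of log2 ratio differences changed for Gfi1/Pou4f3 (-0.12 to 0.085), Pou4f3/Rfx3 (-0.27 to 0.0092), Barhl1/Ikzf2 (-0.062 to 0.15), Barhl1/Rfx1 (-0.19 to 0.011), Barhl1/Rfx3 (-0.018 to 0.17), Ikzf2/Rfx3 (-0.15 to 0.22), Pou4f3/Myo7a (-0.19 to 0.030), Barhl1/Myo7a (-0.022 to 0.13), Ikzf2/Myo7a (-0.066 to 0.096) and Rfx3/Myo7a (-0.18 to 0.082), and over the HC markers for Barhl1 (-0.029 to 0.16) and Rfx3 (-0.042 to 0.17).

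With the replicate number as a block, which cannot move an estimate in this balanced design (Gfi1 -0.18), the adjusted p of Gfi1 was 0.999 (limma) and 4 genes passed. The replicate block changed no call. Deviations of same-numbered libraries correlated at 0.000776, 0.150 and -0.00767, and those of differently numbered libraries at -0.174 to 0.160. Whether same-numbered libraries share a litter or a preparation cannot be told from these values. Depth limits Barhl1 most.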
